A study of Mus musculus with 4 samples.

Results

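Expression in the aorta of C57BL/6 apoE-/- mice on Western diet was compared with that of C57BL/6 apoE-/- mice on chow, across every probe set of the array that is not a control. The 2 arrays compared are among 4 in the study, and all 22626 non-control probe sets entered, with no choice by measured value. Both groups were female, 6 weeks old and lacked apolipoprotein E, as did the animals of the other strain. All were weaned onto chow at 3 weeks. One group stayed on chow, a state the labels class as hyperlipidemia, and the other ate the Western diet for 2 weeks from 4 weeks of age, which they class as extreme hyperlipidemia. The other 2 arrays hold the same diets in C3H/HeJ apoE-/- mice (C3H below) and are used for comparison. Each group is 1 array. The labels do not say whether an array holds RNA of 1 aorta or of several. No difference described here has a replicate, and none was tested.

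Apolipoprotein E is the ligand by which remnant lipoproteins are cleared from blood, and mice without it have high plasma cholesterol on chow that a fat- and cholesterol-rich Western diet raises much further. The large arteries of such mice take up lipoproteins, the endothelium displays adhesion molecules, and monocytes enter the intima and become foam cells. The aortic wall itself consists of smooth muscle cells between lamellae of elastin, with an outer coat of collagen and fibroblasts, and in young animals these cells still deposit collagen and elastin. White and brown fat lie around the vessel, and heart muscle adjoins its root.

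Among the largest differences, collagens and elastic fibre genes were lower and genes of fatty acid oxidation higher on the Western array, while Fos and several other immediate early genes were lower. The sequences before the starts of 5 genes that carry the lower side are shown here, 3 immediate early genes and 2 fibrillar collagens, since all 5 were lower on the Western array. Each is the 250 bases before the gene's start in RefSeq (GRCm38.p6), read on the gene's own strand, with TATAAA (the TATA box letters) and CCAAT on either strand in capitals.
Fos, chr12:85473640-85473889, plus strand: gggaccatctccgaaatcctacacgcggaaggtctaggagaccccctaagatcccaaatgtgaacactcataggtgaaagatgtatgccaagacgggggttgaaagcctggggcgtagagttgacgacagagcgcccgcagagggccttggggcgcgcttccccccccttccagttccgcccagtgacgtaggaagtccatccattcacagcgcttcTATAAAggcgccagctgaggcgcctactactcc
Junb, chr8:84978749-84978998, minus strand: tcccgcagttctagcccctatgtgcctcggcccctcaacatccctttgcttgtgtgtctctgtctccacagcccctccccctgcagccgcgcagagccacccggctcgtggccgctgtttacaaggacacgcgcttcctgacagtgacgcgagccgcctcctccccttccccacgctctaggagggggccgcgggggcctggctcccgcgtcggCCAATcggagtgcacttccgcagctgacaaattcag
Ccn1, chr3:145649986-145650235, minus strand: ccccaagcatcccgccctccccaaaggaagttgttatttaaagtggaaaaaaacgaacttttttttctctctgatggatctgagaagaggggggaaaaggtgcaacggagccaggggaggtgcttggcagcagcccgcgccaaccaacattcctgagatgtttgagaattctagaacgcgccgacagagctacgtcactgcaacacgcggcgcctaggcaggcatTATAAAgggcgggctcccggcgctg
Col1a2, chr6:4505368-4505617, plus strand: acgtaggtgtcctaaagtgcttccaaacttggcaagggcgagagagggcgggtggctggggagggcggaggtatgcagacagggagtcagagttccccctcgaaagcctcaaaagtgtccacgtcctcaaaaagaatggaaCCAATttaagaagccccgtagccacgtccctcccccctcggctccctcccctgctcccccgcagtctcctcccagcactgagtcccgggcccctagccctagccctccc
Col3a1, chr1:45311288-45311537, plus strand: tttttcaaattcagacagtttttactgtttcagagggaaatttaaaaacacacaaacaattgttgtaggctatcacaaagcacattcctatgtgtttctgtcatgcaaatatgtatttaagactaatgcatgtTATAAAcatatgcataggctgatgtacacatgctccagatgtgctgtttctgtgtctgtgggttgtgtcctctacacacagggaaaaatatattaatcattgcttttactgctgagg
TATAAA began 33 bases before the start in Fos, 25 in Ccn1 and 117 in Col3a1. CCAAT began 36 bases before the start in Junb and 109 in Col1a2. Of the 27025 promoters of this table, 13% held TATAAA and 34.5% CCAAT within the same 250 bases. Among 37 immediate early genes with an entry the shares were 16.2% and 40.5%, and among 10 collagens 20% and 40%. The CArG box, the element bound by serum response factor, was held by 1.40% of all promoters, by 2 of the 37 immediate early genes, by 0 of the 10 collagens and by 3 of 17 smooth muscle contractile genes. These are matches of letters and do not show that a factor binds.

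Signals are linear intensities after quantile normalization, and a difference is log2 of Western over chow. A probe set counts as measured where both arrays exceed a floor of 83.6, the 40th percentile of all values. This held for 10914 probe sets, while 5325 exceeded it on 1 array only and 6387 on neither. Technical measures of the 2 arrays were near each other. Spiked hybridization controls (11 probe sets) had a median Western to chow ratio of 1.08, the 3'/5' signal ratios were 1.64 on chow and 1.83 on Western for actin and 1.03 and 1.28 for Gapdh, and the deposited medians were 117.9 and 110.3. Apoe lay under the floor on both (19.1 and 65.3), with no wild type analysed here for reference. The labelled tissue was borne out by smooth muscle genes, with Acta2 at 54541 and 40729, but heart muscle (Actc1, 4417 and 3428) and brown fat (Ucp1, 10640 and 9098) were present too. In bulk tissue, fewer cells of a type and less RNA per cell cannot be told apart.

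The chow array of C57BL/6 was the extreme one of the 4 in much of what follows. Of 303 probe sets at least 2-fold lower on Western and above the floor on all 4 arrays, 231 were highest on C57BL/6 chow among the 4. Of 329 that were at least 2-fold higher, 279 were lowest there. Over all 5646 genes above the floor on the 4 arrays, C57BL/6 chow was highest for 1453 (25.7%) and lowest for 1547 (27.4%). Since these probe sets were selected with the chow array itself, a share above that of all genes is built in. How far the differences reflect diet or that 1 array was not tested. C3H chow was the array most often highest (30.9%) and lowest (30.6%) over all genes, and C57BL/6 Western was lowest for 20.1%. C3H chow also stood apart in its spiked controls, which were highest there for all 11 probe sets, with a median of 1.73 times C57BL/6 chow (1.32 to 2.12), against 1.07 on C3H Western. Its 3'/5' ratio was 2.28 for actin, against 1.63 on C3H Western, and 1.19 for Gapdh. The C57BL/6 differences use that array through the normalization, the floor and the choice of each gene's brightest probe set, all taken over the 4 arrays. With the 2 C57BL/6 arrays normalized alone, but the floor still taken over the 4, 419 probe sets were 2-fold higher and 455 lower.

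At 2-fold, 414 measured probe sets were higher on Western (3.79% of 10914) and 433 were lower (3.97%). The numbers were balanced among dim probe sets, which were split into 4 equal bins by mean signal, with 140 higher and 139 lower in the dimmest bin and 164 and 162 in the next. In the brightest bin (signal 539 and above) 34 were higher and 63 lower. The shares past 2-fold were 10.2% and 11.95% in the 2 dim bins, 5.32% in the third and 3.55% in the brightest, so a 2-fold difference of a bright probe set was the rarer event. The SD over all measured probe sets was 0.56 on the log2 scale. By the brightest probe set of each gene, 932 of 6776 measured genes were at least 1.5-fold higher (13.8%) and 971 at least 1.5-fold lower (14.3%), and the median over genes was 0.00 with quartiles of -0.36 and 0.36. These shares are the background for the gene lists below.

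**Figure D1:**
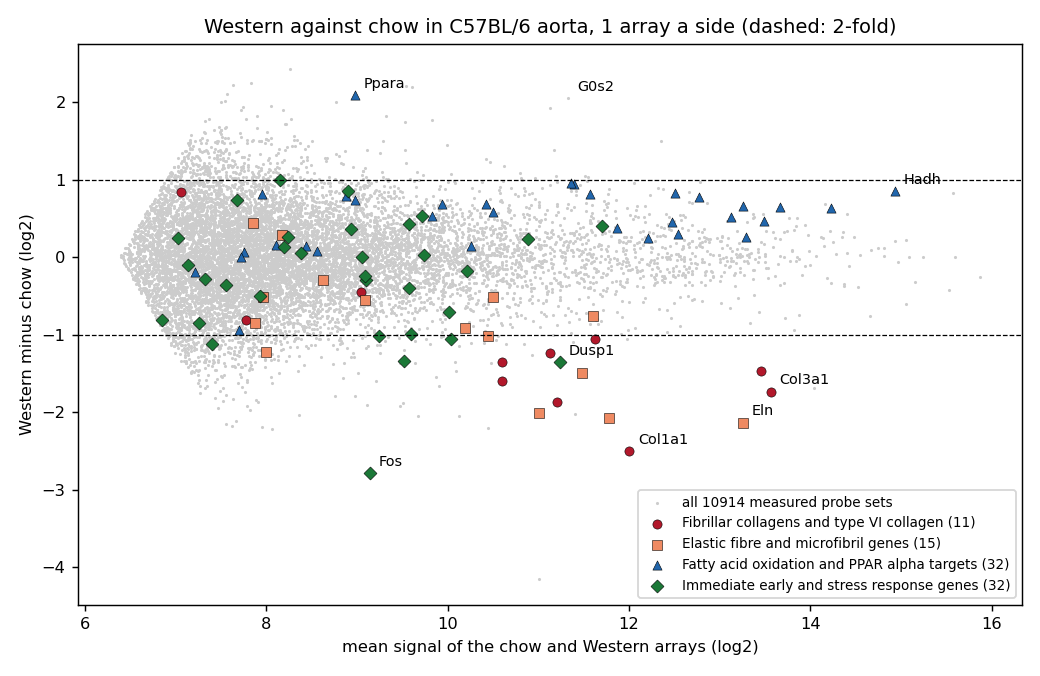
Difference between the Western and chow arrays (log2, vertical axis) against their mean signal (log2, horizontal axis) for 10914 measured probe sets, with the representative probe sets of 4 gene lists in colour and dashed lines at 2-fold. Bright collagen and elastic fibre genes lie below the lower line (Col1a1 at -2.50, Eln at -2.14), bright fatty acid oxidation genes lie above 0 and under the upper line, and Fos lies at -2.78.

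Probe sets of the same gene served as the internal check. Over 2197 genes with at least 2 measured probe sets, sets of a gene differed with a pooled SD of 0.51, against an SD of 0.56 over all their sets, so sets of a gene disagreed nearly as widely as sets in general. Of 187 such genes with a probe set 2-fold higher, 22 had every set at least 1.5-fold higher and 96 had a set on the other side of 0. Of 199 with a set 2-fold lower, 35 had every set at least 1.5-fold lower and 93 had a set on the other side. Every set at least 2-fold was found for 2 genes in the higher and 16 in the lower direction, and 11 genes had a set 2-fold higher and another 2-fold lower. Counted at 1.5-fold in every set, 51 genes were higher (2.32% of 2197) and 55 lower (2.5%).

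**Figure D2:**
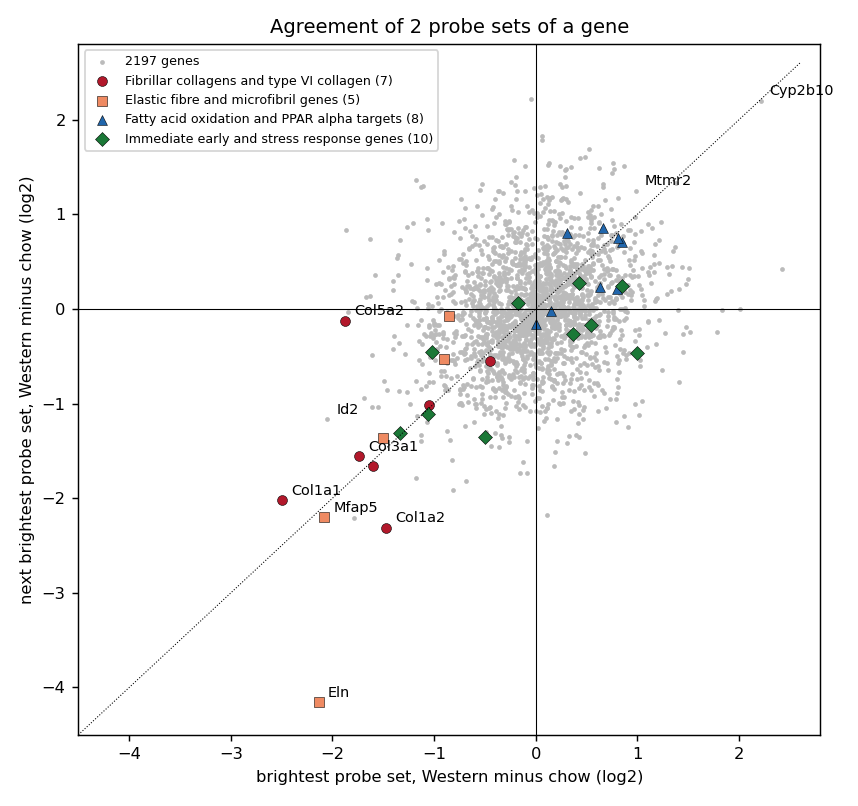
Difference between Western and chow (log2) by the brightest measured probe set of a gene (horizontal axis) and by its next brightest (vertical axis) for 2197 genes, with 4 gene lists in colour and a dotted line of equality. Most genes form a round cloud about 0, while Cyp2b10 at the upper right and Eln, Mfap5, Col1a1, Col1a2 and Col3a1 at the lower left lie far out by both sets.

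The 12 genes on which all probe sets agreed at the largest size on the lower side included Eln, Mfap5 and 4 collagen chains. Eln, the gene of tropoelastin, had signals of 20521 on chow and 4669 on Western by 1 probe set and of 8691 and 487 by the other, 4.40-fold and 17.9-fold lower. Both sets were lower, although the sizes disagreed. Mfap5, a microfibril-associated glycoprotein, went from 7224 to 1708, and its 2 sets gave -2.20 and -2.08. Col1a1, the alpha 1 chain of type I collagen, went from 9717 to 1720 (5.65-fold) and from 5479 to 1347 (4.07-fold) by its other set. Col4a6, a chain of basement membrane collagen, had 939 and 272, with sets from -2.21 to -1.79. Both sets of Col3a1 (type III collagen) and Col1a2 lay between -2.31 and -1.47. Mmp2, a gelatinase that cuts type IV collagen, had 663 and 292, with sets at -1.79 and -1.18.

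Regulators completed this lower group. Id2, an inhibitor of basic helix-loop-helix factors, had 2273 on chow and 548 on Western, with its 2 measured sets at -2.05 and -1.16. Gata6, a transcription factor of vascular smooth muscle, had 631 and 289 (sets -1.33 and -1.13). Ccn1, a matricellular protein and immediate early gene, had 1171 and 464 (sets -1.34 and -1.31). Man1a2, a mannosidase of N-glycan trimming, had 271 and 120, and Cmtr1, a methyltransferase of the mRNA cap, 320 and 153. Of these 12 genes, Eln, Col1a1, Col3a1, Col1a2 and Mfap5 are among the brightest of the aorta, where 2-fold differences were rare.

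On the higher side the gene with the largest agreement was Cyp2b10, a cytochrome P450 that is a classic target of the xenobiotic receptor CAR. Its 3 probe sets had signals of 346, 363 and 135 on chow and of 1605, 1666 and 523 on Western, 4.63-fold, 4.59-fold and 3.87-fold higher. All 3 were clear of the floor and none of the 3 disagreed. In C3H the gene went the other way, from 662 on chow to 83.8 on Western by the first set, so the C57BL/6 Western array is the highest of the 4 and the C3H Western array the lowest. The other gene with every set at least 2-fold higher was Pnkd, at 289 and 752 (sets 1.33 and 1.38). Mtmr2, a phosphoinositide phosphatase, had 185 and 365, with sets at 0.98 and 1.25.

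The rest of this group had varied roles. Mmut, methylmalonyl-CoA mutase of propionate breakdown, had 922 and 2162 (sets 0.92 and 1.23). Abhd5, the co-activator of adipose triglyceride lipase, had 239 and 513 (sets 0.90 and 1.10). Scd1, the stearoyl-CoA desaturase, had 36523 and 65163 (sets 0.84 and 0.89), the brightest gene of the group. Sephs2, which makes selenophosphate for selenoproteins, had 2034 and 3877, and its 3 sets ran from 0.83 to 1.01. Mrpl39, of the mitochondrial ribosome, had 1680 and 3300 (sets 0.79 and 0.97). Mob1a (0.83 to 0.91 by 3 sets), Trip4 (0.83 to 1.04 by 3 sets), Mmd (0.79 and 0.80) and Cntd1 (0.87 and 1.51) completed it.

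Genes with a single measured probe set have no such check, and their values are given with that limit. The largest lower difference was that of Fos, the AP-1 subunit, at 1487 on chow and 216 on Western (6.89-fold). C3H arrays lay between these, at 519 and 553. Osr1, a transcription factor of mesenchymal cells, had 1667 and 403, Mfap4, another microfibril protein, 4150 and 1028, and Pi15 530 and 116. Col15a1, a basement membrane collagen, had 449 and 114. Krt18, a keratin of simple epithelia, had 667 and 163, and the adaptor Sh3gl1 397 and 89.2, close to the floor. Diablo had 425 and 98.1, but its other set went the other way, from 6.73 to 178.

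The largest higher differences among single sets included those of acute-phase, neutrophil and lipid genes. S100a8 and S100a9, the subunits of calprotectin, had 104 and 218 on chow and 496 and 871 on Western, 4.76-fold and 4.00-fold. Hp, haptoglobin, an acute-phase protein that also comes from fat, had 1149 and 4360 (3.79-fold). G0s2, an inhibitor of adipose triglyceride lipase, had 1259 and 5232 (4.16-fold). Ppara, the nuclear receptor that switches on fatty acid oxidation, had 244 and 1043 (4.27-fold). For Ppara, G0s2 and Hp the C57BL/6 chow array was lowest of the 4, with C3H arrays at 962 to 1150, 3776 to 5828 and 2529 to 2824. Like S100a8, Fen1 (91.2 and 393), B3gat3 (109 and 421) and Ckap5 (109 and 408) started near the floor. The other sets of Fen1 and B3gat3 lay under the floor on both arrays.

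Where 1 array was under the floor only a bound can be given, taking the floor as the signal of the dim array. Acvrl1, the ALK1 receptor of BMP9 in endothelium, had 587 on chow and 37.3 on Western, at least 7.02-fold lower. Pde3a, a phosphodiesterase that breaks down cyclic AMP, had 385 and 25.6, at least 4.61-fold lower. Apoc1, an apolipoprotein of macrophages and liver that is an LXR target, had 42.2 and 447, at least 5.35-fold higher. Plekhh3 had 52 and 468 (at least 5.60-fold higher) and Timm22, of the mitochondrial import machinery, 68.3 and 383 (at least 4.59-fold). Cmip was at least 4.87-fold higher by 1 set and 2.38-fold by its other. The remaining 4 each had another set that did not share the difference. A set of Mindy1 was at least 6.18-fold lower, while another was at least 1.82-fold higher. A set of Clk4 was at least 4.45-fold lower against 0.16 by the other, and a set of Ube4b at least 4.43-fold higher against -0.28. A set of Hadh was at least 5.48-fold lower, with 458 on chow, whereas its 2 far brighter sets were higher.

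Genes of the vessel wall were read through lists of related genes, each gene by its brightest probe set. A gene can stand in more than 1 list. The lists and their members were chosen with earlier results of these data known. Shares over all genes are set beside them as a scale and not as a test. Fibrillar collagens and type VI collagen, the ropes and beaded filaments of the adventitia and media, had the lowest median of the 52 lists. Of 11 measured members 9 were at least 1.5-fold lower and 1 higher, against 14.3% and 13.8% of all genes, and the median was -1.36. Col5a2 had 4538 and 1238, although its other set gave -0.12, and Col5a1 had 2708 and 893 with sets from -1.66 to -0.34. The type VI chains, named after their values were seen, went from 3441 to 1460 (Col6a1), 4543 to 2190 (Col6a2) and 2489 to 972 (Col6a3). The exception was the dim Col12a1, at 99.9 and 179. Of the 7 members with several measured sets, 4 had every set at least 1.5-fold lower and none had every set higher. Over all 2197 such genes the shares were 2.5% and 2.32%. All 10 members above the floor on the 4 arrays were highest on C57BL/6 chow, and 9 of the 10 were lowest on C3H chow, against 25.7% and 30.6% of all genes.

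Enzymes that process and cross-link collagen were lower as well, with a median of -0.83 over 17 members (10 at least 1.5-fold lower and 1 higher). Sparc, a collagen-binding glycoprotein, had 30108 and 9342, and its 2 sets gave -1.69 and -0.94. Lox, the lysyl oxidase that cross-links collagen and elastin, had 4815 and 1705, though 1 of its 3 sets gave 0.19. Bmp1, the procollagen C-proteinase, had 348 and 90.5, near the floor, and Pcolce, its enhancer, 1019 and 493. Loxl1 had 1982 and 978. Prolyl hydroxylase subunits did not follow: P4ha1 had 91.5 and 102, P4ha2 236 and 396, and only P4hb, which is also protein disulfide isomerase, was lower (2107 and 1392).

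Elastic fibre and microfibril genes had a median of -0.85 over 15 members, 9 of them at least 1.5-fold lower and 0 higher. Emilin1, which sits between elastin and microfibrils, had 391 and 168. Fbln1 had 316 and 175 and Fbln2 658 and 450, and the list's upper end was at 0.45. Eln, Mfap5, Mfap4 and Lox, described above, were its largest. Of 13 members above the floor on all arrays, 10 were highest on C57BL/6 chow, against 25.7% of all genes.

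Basement membrane genes had a median of -0.61 over 15 members, with 10 at least 1.5-fold lower and 0 higher. Hspg2 (perlecan) had 867 and 308, Lama2, a laminin chain of muscle, 716 and 318, and Lamc1 619 and 347. The main vascular chains Col4a1 (3835 and 2515) and Col4a2 (2224 and 1351) were lower by less. Here C57BL/6 Western was the lowest of the 4 arrays for 8 of 14 members, against 20.1% of all genes. For the fibrillar and type VI collagens it was lowest for 1 of 10.

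Proteoglycans showed a smaller shift, with a median of -0.49 (-0.32 by the mean over all sets) and 5 of 14 at least 1.5-fold lower and 1 higher. Lum (lumican) had 1247 and 601, Bgn (biglycan) 17604 and 10264 with 3 sets between -0.84 and -0.70, and Gpc3, a glypican, 843 and 430. Dcn (decorin) had 7920 and 6377. Sdc1, a syndecan, had 138 and 223. Matricellular and adhesive glycoproteins had a median of -0.74, with 9 of 17 lower and 0 higher. Tnxb, tenascin X, had 452 and 155, Tgfbi 1658 and 750 (4 sets from -1.14 to -0.16), and Thbs3 257 and 127. Among matrix proteases and their inhibitors 5 of 14 were lower and 1 higher (median -0.50, and -0.10 under a 60th-percentile floor). Timp2 had 4395 and 2496, with 5 sets from -0.82 to -0.20, Mmp3 219 and 119, and Timp1 231 and 145, whereas the plasminogen activator Plat had 171 and 289.

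Markers of fibroblasts and adventitia had a median of -0.73, with 9 of 16 lower and 0 higher. Pi16, of adventitial progenitor-like fibroblasts, had 1110 and 483, Dpt (dermatopontin) 3909 and 1830, and Clec3b 258 and 128. The receptor Pdgfra, which also marks these cells, had 272 and 233, a smaller difference. Contractile genes of smooth muscle shifted less than matrix genes. Their median was -0.37, with 6 of 19 at least 1.5-fold lower and 1 higher. Acta2 (54541 and 40729), Myh11 (10426 and 8093) and Tagln (23900 and 18838), the most used markers, were 1.27-fold to 1.34-fold lower, and the second, dim sets of Acta2 and Myh11 gave 0.13 and 0.06. The largest were Synpo2 (247 and 125), Mylk, the myosin light chain kinase (4227 and 2432, 3 sets from -0.85 to -0.58), Itga8 (2666 and 1630) and Cnn1 (6948 and 4320). None of the 8 members with several sets had every set at least 1.5-fold lower. For 14 of 19 the C57BL/6 chow array was the highest of the 4, and for 16 of 19 C3H chow was the lowest, against 25.7% and 30.6% of all genes. With loess normalization the median of the list was -0.55.

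**Figure D3:**
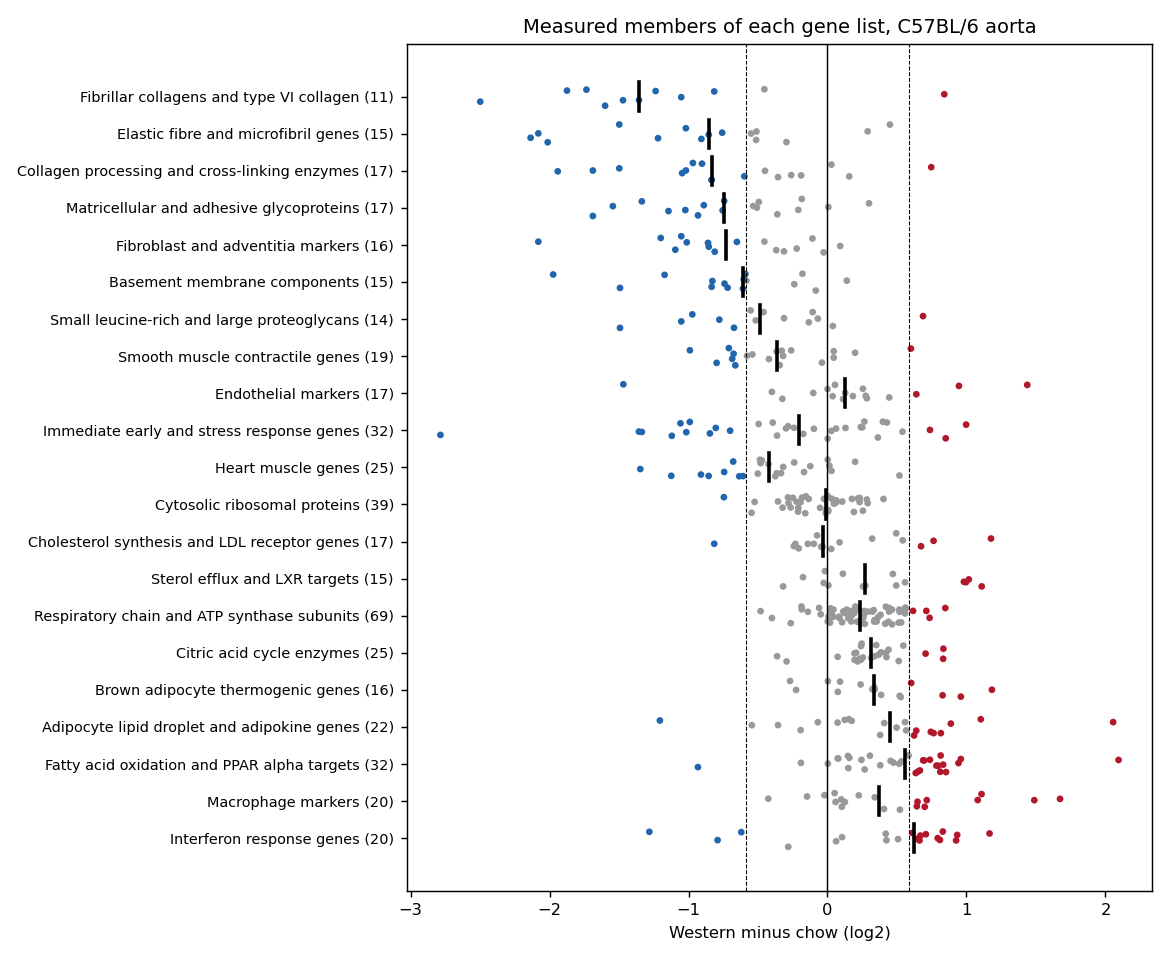
Difference between Western and chow (log2, horizontal axis) of each measured member of 21 gene lists, with the number of members in parentheses, black bars at the medians and dashed lines at 1.5-fold. Red and blue points are at least 1.5-fold higher and lower. The matrix lists at the top have medians from -1.36 to -0.49, ribosomal protein genes centre on -0.01 with a narrow spread, and the fatty acid oxidation list has its median at 0.56.

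Endothelial markers did not share this shift, with a median of 0.13 and 3 of 17 higher and 1 lower. Pecam1 (1815 and 1884), Cdh5 (348 and 348) and Kdr (265 and 272) were nearly equal on both arrays. The angiopoietin receptor gene Tek had 338 and 651, Ptprb, its phosphatase, 739 and 1151, and Nos3, endothelial nitric oxide synthase, 375 and 510. Flt1, a VEGF receptor, had 190 and 515 by 1 set, while its others gave 0.44 and -0.24. Robo4 had 254 and 91.8. Vasoactive genes had a median of -0.35 (4 of 14 lower, 1 higher), or -0.22 by the mean over all sets. Both subunits of soluble guanylate cyclase, the nitric oxide receptor of smooth muscle, were lower, Gucy1b1 at 1283 and 769 and Gucy1a1 at 877 and 564, though the other set of Gucy1b1 gave 0.52. Edn1 (endothelin) had 273 and 404 and the natriuretic peptide receptor Npr1 170 and 269. Channel genes were mixed (2 of 12 higher, 1 lower), with Kcnma1, the BK channel of smooth muscle, at 318 and 136 and Kcna5 at 107 and 315.

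Growth pathways showed single large differences and list medians near 0. TGF-beta and BMP genes had a median of -0.08 over 25 measured members, with 4 at least 1.5-fold lower and 1 higher. The lower ones included Id2, a BMP target, Bmp1 and Inhbb (141 and 88.1), and Bmp4 was the higher one (260 and 399). The ligands Tgfb2 (188 and 196) and Tgfb3 (710 and 504) and the receptor Tgfbr1 (442 and 331) were within 1.5-fold. A further 6 members gave bounds, 3 at least 1.5-fold lower and 1 higher, with Acvrl1, described above, the largest. Over all genes, 628 of 2685 bounds were at least 1.5-fold lower and 658 higher. Wnt genes had a median of -0.08 (4 of 16 lower, 2 higher), with the secreted inhibitors Sfrp2 (909 and 414) and Sfrp4 (789 and 461) and the ligand Wnt11 (217 and 96.1) lower and Wnt2 (147 and 261) higher. Igf1 had 607 and 250, with 3 sets from -1.28 to -0.48, and Igfbp7 19421 and 11602, with 3 measured sets all lower, while the receptor Igf1r had 169 and 149 (list median 0.06, 1 of 13 higher and 3 lower). Of the imprinted growth genes 3 of 14 were lower and 1 higher (median -0.24, and from -0.36 to -0.11 under other settings), led by Meg3, at 1610 and 549, whose 5 sets ran from -1.55 to 0.24. Cell cycle genes were dim, with 12 of 37 measured (median -0.34, 3 lower and 1 higher). The median turned to 0.02 when all measured sets of a gene were averaged, and was -0.14 with loess normalization. Another 14 cell cycle genes gave bounds, 9 brighter on chow and 5 on Western. Of these, 5 were at least 1.5-fold lower and 0 higher. Mcm4 had 259 and 113, whereas the 4 sets of Mcm7 ran from -1.13 to 1.28.

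Immediate early genes are induced within minutes by stretch, growth factors or the handling of tissue, and are read here as a list on that account. Of 32 measured members 10 were at least 1.5-fold lower and 3 higher, with a median of -0.21. That median was -0.05 under a 25th-percentile floor and -0.11 with equal array medians. The AP-1 genes Fos (1487 and 216), Jun (865 and 428, with its other set at -0.46) and Junb (250 and 115) were all lower. So were the phosphatase Dusp1 (3862 and 1508) and the antiproliferative Btg2 (1515 and 728, sets -1.11 and -1.06). Others named after their values were seen went the other way or stayed near 0, with Ier2 at 281 and 307, Atf3 at 146 and 136, and Gadd45b at 202 and 403 against -0.47 by its other set. Of 30 members above the floor on all arrays, 15 were lowest on C57BL/6 Western, 6 on C57BL/6 chow, and 21 were highest on C3H chow. Over all genes 20.1% were lowest on C57BL/6 Western and 30.9% highest on C3H chow. The lower AP-1 group was thus a part of the list rather than all of it.

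Stress programmes otherwise showed no common direction. Heat shock genes had a median of -0.10 (4 of 19 higher, 3 lower). The mitochondrial chaperonins Hspd1 (1377 and 2486) and Hspe1 (553 and 1188, with its other set at -0.13) were higher and the cytosolic Hsph1 (736 and 427) was lower. The 3 sets of Hspa1b ran from -0.91 to 0.84. Genes of the unfolded protein response had a median of 0.06 (3 of 22 higher, 2 lower), with the chaperone Hspa5 at 2622 and 4356 (sets 0.51 and 0.73) and Asns, an ATF4 target, at 380 and 591 (sets 0.64 and 0.78). Glucocorticoid-responsive genes were higher in 16 of 18 members (median 0.24, and 0.42 with equal array medians), of which 4 passed 1.5-fold. Fkbp5 had 383 and 972 with its other set at 0.46, Tsc22d3 (GILZ) 626 and 908 with 3 sets from 0.54 to 0.99, and Dusp1, in the opposite direction, also belongs here. Clock genes were mixed, with 5 of 16 higher and 1 lower. Nr1d2, a repressor within the clock, had 184 and 548, and the activators Npas2 (265 and 111) and Arntl (272 and 209) were lower. The labels give no hour of tissue collection.

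Fatty acid oxidation genes formed the largest shift to the higher side among lists of at least 20 measured members, apart from the interferon list. Their median was 0.56, and 15 of 32 measured members were at least 1.5-fold higher and 1 lower, while 30 of 32 lay above 0. PPAR alpha is the receptor that fatty acids activate to induce these enzymes. Hadh, the hydroxyacyl-CoA dehydrogenase of beta-oxidation, had 23182 and 41872 and, by its second bright set, 5172 and 8435. Etfdh, which passes electrons from acyl-CoA dehydrogenases to the respiratory chain, had 1948 and 3744. Fabp3, a fatty acid carrier of muscle and brown fat, had 1882 and 3659, and Cpt2, of carnitine-dependent import, 1082 and 1743. Cpt1a, whose product controls that import, had 368 and 388. The nuclear receptor Esrra was the 1 member at least 1.5-fold lower, at 288 and 151. Of 8 members with several sets, 3 had every set at least 1.5-fold higher and none had every set lower. Over all 2197 genes with several measured sets the shares were 2.32% and 2.5%. C57BL/6 chow was lowest of the 4 arrays for 23 of 32 members, against 27.4% of all genes. C3H chow was highest for 18 of the 32, against 30.9%.

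Mitochondrial genes beyond fatty acid oxidation shifted in the same direction by less. Of 69 subunits of the respiratory chain and ATP synthase, 61 lay above 0 with a median of 0.23, although only 4 passed 1.5-fold and 0 did so in the lower direction. Uqcrc2, of complex III, had 4829 and 8691 with sets at 0.85 and 0.32, and Ndufb6, of complex I, 1196 and 1989 with sets at 0.73 and 0.62. Citric acid cycle genes had a median of 0.31 with 23 of 25 above 0 (3 at least 1.5-fold higher). Dlst had 1145 and 2042, Fh1 (fumarase) 2726 and 4447, and Cs (citrate synthase) 6776 and 7875. Glycolysis genes had a median of 0.13 (3 of 17 higher, 1 lower), with Pgam1 at 488 and 1135. With equal array medians the respiratory chain list had a median of 0.44 and the citric acid cycle list 0.54. Ribosomal protein genes had a median of -0.01, with 0 of 39 at least 1.5-fold higher and 1 lower.

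Genes of fat cells were higher too, which bears on the reading of the oxidation list. Adipocyte genes had a median of 0.45 (8 of 22 higher, 1 lower), and their summed signal was 101214 on chow and 130410 on Western. Adipoq, adiponectin, had 7958 and 12257, Plin2, a lipid droplet coat, 2589 and 4790, and Pparg 1291 and 2273. Fabp4, the most abundant of them, differed less (26196 and 28554). Brown adipocyte genes had a median of 0.34 (4 of 16 higher, 0 lower) and summed to 49086 and 59754. Slc27a2, a fatty acid transporter, had 1048 and 2380, but Ucp1, which defines brown fat, had 10640 and 9098, and Dio2 306 and 361. Defining markers of both fats were thus far above the floor on both arrays. The part of fat tissue in the higher fatty acid oxidation and respiratory genes was not tested.

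Genes of fatty acid synthesis did not shift as a list (median 0.10, 4 of 27 higher and 2 lower). The bright Scd1 (36523 and 65163) was higher while Fasn (9397 and 9560) was nearly equal. Srebf1, the transcription factor of lipogenesis, had 395 and 788, and Pck1, of glyceroneogenesis, 2036 and 4215. Acaca (266 and 101) and the desaturase Fads2 (289 and 89.7), both less bright, were lower. Cholesterol synthesis genes, which sterols repress through SREBP2, had a median of -0.03 (3 of 17 higher, 1 lower). A further 4 exceeded the floor on 1 array only, all 4 brighter on chow. Of these, 2 were at least 1.5-fold lower, with a largest bound of 2.46-fold. Over all genes 1361 of 2685 such cases were brighter on chow and 628 were at least 1.5-fold lower. The 3 higher members were Mvk (92.7 and 210, near the floor on chow), Scap (158 and 268) and Srebf2, the gene of SREBP2 (152 and 243). Msmo1 (191 and 109) was the 1 lower member. Hmgcs1 had 1222 and 1033 with 4 sets from -0.41 to 0.85, Sqle 143 and 138, and Fdft1 1823 and 2568.

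Sterol efflux genes and LXR targets had a median of 0.27, with 4 of 15 higher and 0 lower. LXR is the receptor that oxysterols activate. Its targets Abca1 and Abcg1, the cholesterol exporters, had 462 and 912 and 378 and 764. A second set of Abca1 gave 0.97 and the dimmest 0.18. Apod had 365 and 787, and Srebf1 is an LXR target as well. Of 3 members with bounds, Apoc1 was at least 5.35-fold higher, whereas the transporters Abcg4 (165 and 75) and Abcg5 (106 and 25), named after their values were seen, were at least 1.97-fold and 1.27-fold lower. With equal array medians the list's median was 0.44, and by the mean over all sets it was 0.17. The receptor gene Nr1h3 itself had 209 and 210. Among scavenger receptors and uptake genes, 1 of 10 was higher and 1 lower (median 0.30, and 0.07 under a 25th-percentile floor). Lipa, lysosomal acid lipase, had 224 and 549 by the brightest of its sets, but its others gave 0.16 and -1.41. Cd36 had 4682 and 6089, with 3 sets from 0.38 to 1.78, Vldlr 1004 and 1494, and Scarb1 330 and 326.

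Inflammatory genes were mostly dim, so part of each list gives bounds only. Macrophage markers had a median of 0.37, with 8 of 20 measured members at least 1.5-fold higher and 0 lower. Under a 60th-percentile floor the median was 0.10. A further 7 exceeded the floor on 1 array only, 6 of them on Western, each at least 1.5-fold higher, while over all genes 1324 of 2685 such cases were brighter on Western. Ptprc (CD45), of all leukocytes, had 105 and 334, Cd53 104 and 291, Adgre1 (F4/80) 106 and 224, and Gpnmb, a foam cell gene, 138 and 297. Csf1r had 800 and 857, Cd68 135 and 178, and Lyz1 1613 and 2646. Of the 5 macrophage markers with several measured sets, 0 had every set at least 1.5-fold higher. Of the neutrophil list 4 of 15 members were measured, and besides S100a8 and S100a9 these were Ngp (207 and 249) and Il1b (155 and 111). That list's median of 1.14 was 0.47 under a 25th-percentile floor and 0.27 without sets of shared probes. Lymphocyte markers had 5 of 22 measured (median -0.11, 0 higher and 1 lower). Another 9 exceeded the floor on 1 array only. Of these, 4 were at least 1.5-fold higher and 1 lower, against 658 and 628 of 2685 over all genes. The 5 of 9 MHC class II genes that were measured lay within 1.5-fold by their brightest sets. H2-Aa had 1304 and 1477, with its other set past 1.5-fold at 0.67, and Cd74 had 690 and 989. Among 3 MHC class II genes with bounds, H2-DMb2, named after its values were seen, had 8.51 and 181 and was at least 2.17-fold higher.

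Several signals that recruit leukocytes were higher. The adhesion molecule Vcam1 had 182 and 423, and its 3 sets gave 0.49 to 1.21. Icam1 had 114 and 179 and Jam2 153 and 314, while Selp, P-selectin, had 156 and 95.6 and Icam2 384 and 291. Over that list 3 of 9 were higher and 1 lower (median 0.45, and 0.27 by the mean over all sets). Its 5 members with bounds comprised 4 at least 1.5-fold higher and 1 lower, against 658 and 628 of 2685 over all genes. Chemokines had 7 of 32 measured, 4 of them higher and 0 lower (median 0.91). A further 11 gave bounds, 6 brighter on Western and 5 on chow, with 3 at least 1.5-fold higher and 1 lower. The lower one, Cxcl16, named after its values were seen, had 276 and 54.1 and was at least 3.30-fold lower, the largest of these bounds. The median of the list was 0.21 under a floor at either the 25th or the 60th percentile and 0.57 with loess normalization. Ccl6 (234 and 443), Ccl9 (383 and 718, sets 0.25 and 0.91), Cxcl13 (102 and 224) and the receptor Cx3cr1 (116 and 219) were the 4, while Ccl2, the monocyte chemokine, named after its values were seen, had 101 and 23.2. Interferon response genes had a median of 0.63, with 11 of 20 higher and 3 lower. Igtp (186 and 417), Bst2 (153 and 293), Irf9 (84.3 and 160, near the floor on chow) and Trim25 (175 and 312, other set 0.16) were higher. Irgm1 (215 and 88.3), Irf7 (210 and 137) and Ifit2 (202 and 117), the last named after its values were seen, were lower. Of the 4 interferon members with several measured sets, 0 had every set at least 1.5-fold higher. Toll-like receptor and NF-kappaB genes (median -0.10, 1 of 17 higher and 1 lower) and complement genes (median 0.00, 0 of 14 past 1.5-fold in either direction) had medians near 0.

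Redox and iron genes held several larger differences. Of enzymes that handle peroxide, superoxide and glutathione, 9 of 32 were higher and 2 lower (median 0.21, from 0.12 under a 60th-percentile floor to 0.41 with equal array medians). Gpx4, which reduces lipid peroxides in membranes, had 3050 and 5951 (sets 0.96 and 0.34), Gsta4, which conjugates the lipid aldehyde hydroxynonenal, 199 and 552, Txnrd2 104 and 295, and Gclm, a subunit of the enzyme that limits glutathione synthesis, 129 and 258. Extracellular Sod3, a product of smooth muscle, had 3207 and 1750 (sets -1.29 and -0.87), while Sod1 and Sod2 were within 1.1-fold. Heme, iron and copper genes had 8 of 26 higher and 3 lower (median 0.28, and 0.15 under a 60th-percentile floor). Besides Hp, ceruloplasmin (Cp) had 297 and 691 and all 5 of its measured sets lay above 0 (0.33 to 1.22). Blvra, biliverdin reductase, had 154 and 439, Alas1 670 and 1131 (sets 0.75 and 0.94), and the iron hormone Hamp 326 and 123. Erythroid and blood genes had 4 of 6 measured members higher and 1 lower, with a median of 0.71 that was 0.15 under a 60th-percentile floor. The higher ones were Alas2 (180 and 304) and the platelet genes Ppbp (123 and 362), Itga2b (114 and 237) and Pf4 (465 and 739). Bpgm, of red cell glycolysis, had 509 and 267, and Car2, a carbonic anhydrase, named after its values were seen, 265 and 204.

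Markers of tissues that can come with the aorta moved as well, and their values stand beside the matrix result. Heart muscle genes had a median of -0.42 (8 of 25 lower, 0 higher) and a summed signal of 39261 on chow and 29948 on Western. Ankrd1 had 1728 and 679, Sln 2215 and 1224, Tnnt2 2009 and 1294, and Myh6 2460 and 2463. Skeletal muscle genes had a median of -0.48 (4 of 10 lower, 1 higher), summed to 7342 and 5561, and were led by Acta1 at 376 and 105, with Myl1 in the other direction (152 and 424). Schwann cell and nerve genes had a median of -0.43 (3 of 10 lower, 1 higher) and summed to 6789 and 4698, with Pmp22 at 3689 and 2116 and Erbb3 at 179 and 102. Several defining members lay under the floor on both arrays (Myh7 and Nppb for heart, Tnnt3 and Ryr1 for skeletal muscle, Gfap and Nefl for nerve). The part of these tissues in the lower matrix genes was not tested.

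Set beside the same diets in C3H, the vessel wall and fat lists pointed the opposite way. The matrix lists had C3H medians of 0.87 (fibrillar and type VI collagens), 0.75 (elastic fibre), 0.42 (collagen processing), 0.70 (fibroblast) and 0.46 (contractile), where C57BL/6 had -1.36, -0.85, -0.83, -0.73 and -0.37. Fatty acid oxidation, adipocyte and brown adipocyte genes had C3H medians of -0.35, -0.39 and -0.66 against 0.56, 0.45 and 0.34. Among 45 lists with at least 7 measured members in each strain, 18 were lower in C57BL/6 and higher in C3H, 11 were higher in C57BL/6 and lower in C3H, and 16 had 1 sign. The same sign at a size above 0.25 in both strains was held by the macrophage (0.37 and 0.29), interferon (0.63 and 0.49) and adhesion (0.45 and 0.72) lists and, on the lower side, by the Kruppel-like factors (-0.36 and -0.31). The macrophage value for C57BL/6 was 0.10 under a 60th-percentile floor, under that size. The 2 comparisons share no array, and the difference between strains was not tested. Every C3H difference rests on the C3H chow array, whose spiked controls stood apart as given above, and their part in the result was not tested. Signal of adjoining tissue differed between strains as well. On chow and Western, heart muscle genes summed to 39261 and 29948 in C57BL/6 and to 5282 and 4917 in C3H. Brown adipocyte genes summed to 49086 and 59754 in C57BL/6 and to 98144 and 65351 in C3H. The part of these tissues in the opposite signs was not tested.

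**Figure D4:**
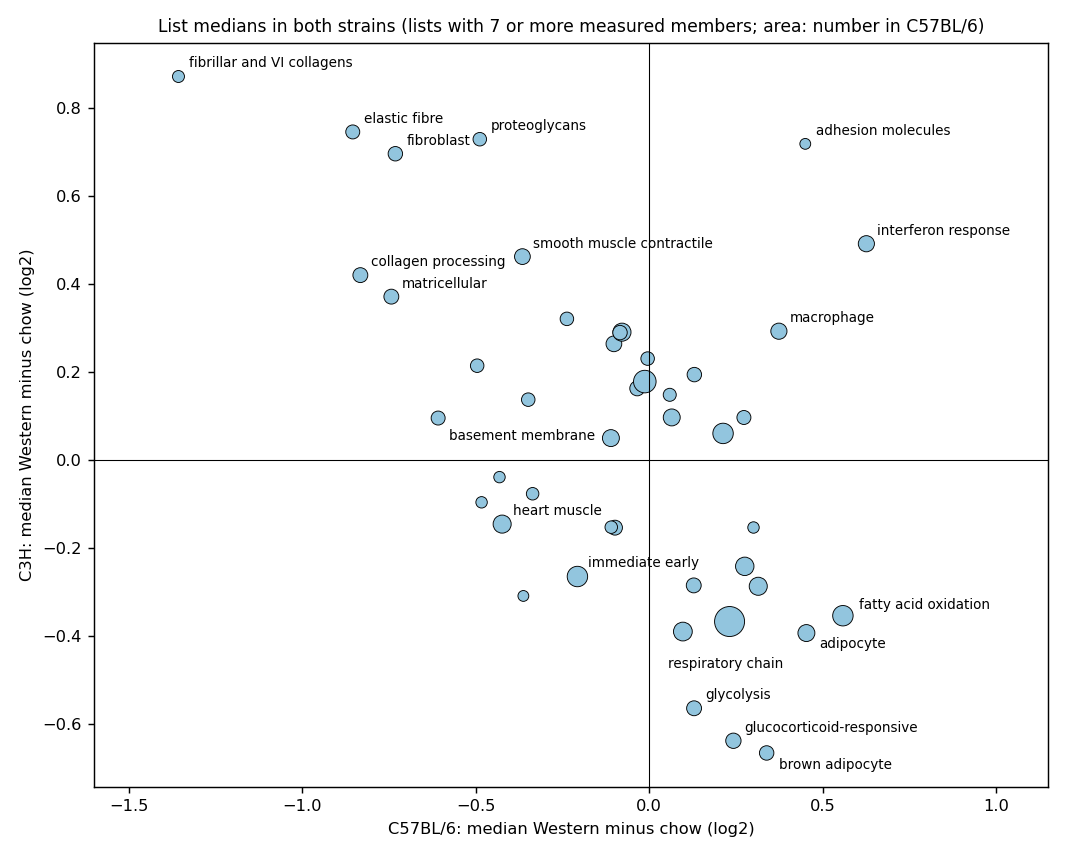
Median difference between Western and chow (log2) of 45 gene lists in C57BL/6 (horizontal axis) and in C3H (vertical axis), with point area by the number of members measured in C57BL/6. Matrix, fibroblast and contractile lists lie at the upper left, fat and mitochondrial lists at the lower right, and the interferon, macrophage and adhesion lists at the upper right.

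The single genes behind these medians differed in which array set them apart. Col1a1 had 9717 and 1720 in C57BL/6 and 1512 and 2782 in C3H, so that 3 arrays lay within 1512 to 2782 and C57BL/6 chow alone was high. Eln followed this pattern (20521 and 4669, then 3487 and 7701), as did Sparc (30108 and 9342, then 6441 and 11662) and Mfap5 (7224 and 1708, then 869 and 1959). Ppara was the mirror image, with C57BL/6 chow at 244 and the others at 962 to 1150. S100a9 followed diet in both strains (218 and 871, then 350 and 1325). Dusp1 did so too in the lower direction (3862 and 1508, then 6758 and 3559), and Junb likewise (250 and 115, then 476 and 173). Fos did not, since its C3H arrays were nearly equal.

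**Figure D5:**
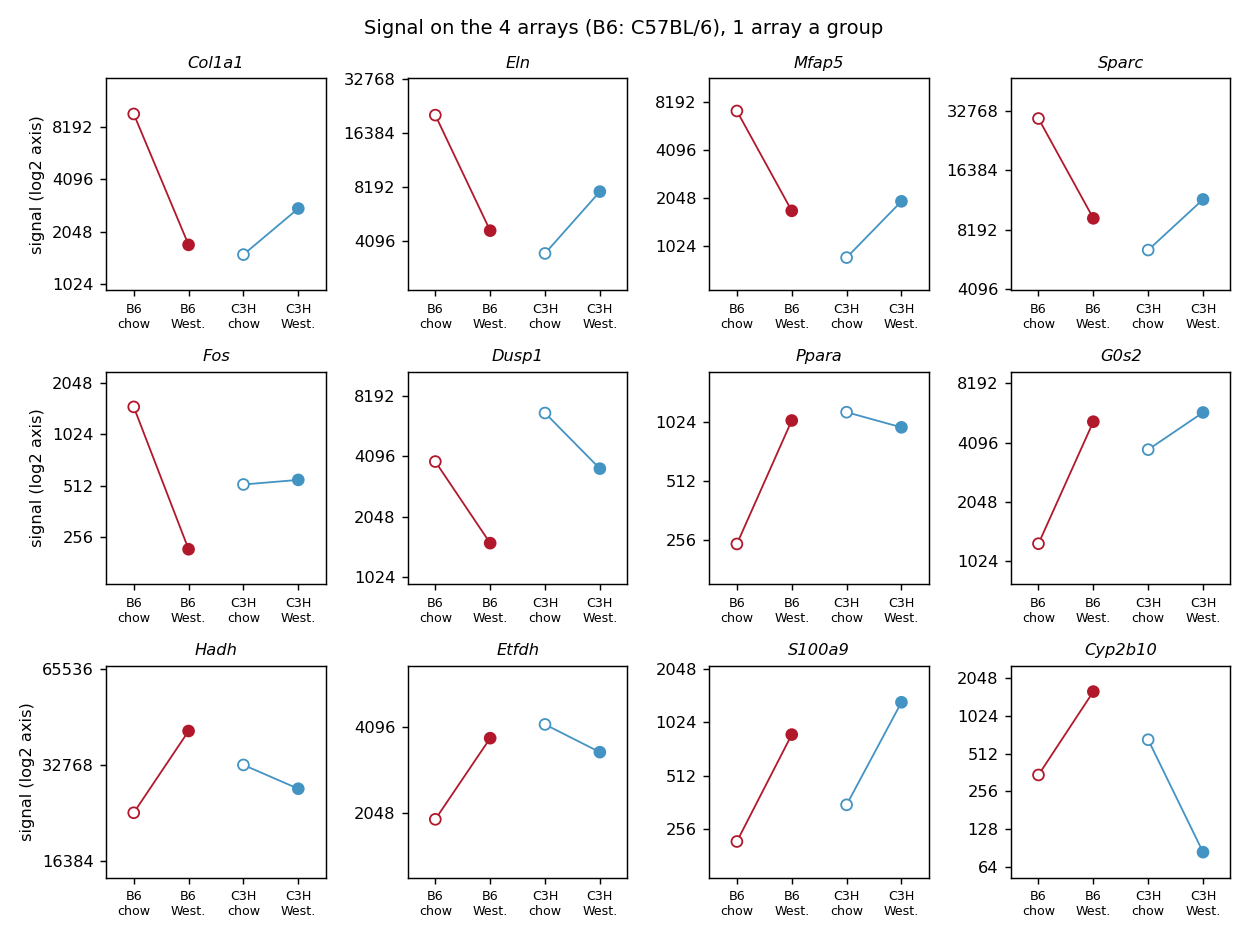
Signal (log2-spaced axis, its range set for each gene) of 12 genes on the 4 arrays, with open points for chow, filled points for Western, red for C57BL/6 (B6) and blue for C3H. Each point is 1 array. For Col1a1, Eln, Mfap5 and Sparc the open red point stands above the other 3, for Ppara and G0s2 it stands below them, and for S100a9 and Dusp1 both lines run the same way.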

How the data were processed

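The authors deposited 1 linear signal intensity per probe set for each of 4 Affymetrix arrays (1 per strain and diet, 8 ug of total RNA each, per the labels). Neither the labels nor the file header name the software behind these intensities or any pooling. The 64 control probe sets were left out. Log2 intensities were quantile-normalized (limma 3.58.1, R 4.3.3) and analysed in Python 3.11.15 with pandas 2.3.3. Of 22626 probe sets 20380 name 1 gene in the platform annotation, 691 several and 1555 none, and only the first were named. A gene's representative is its brightest probe set over the 4 arrays. With 1 array a group there was no test and no replicate error, so precision is set by the few arrays. The counting code was run on simulated arrays with large shifts in bright probe sets and less noise than in these data. That run does not show how many of the calls here are wrong. Genes were named by rule: 12 a direction with the largest least-changed of several sets, 8 with 1 measured set, 5 by bound, and for each list its first 3 measured members and its 5 largest. Members and the 52 lists were chosen with earlier results of these data known. Alternatives covered normalization, floor, fold and choice of probe sets.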

Additional observations from a re-analysis of the deposited data

Results flagged for a closer look

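The response to diet pointed opposite ways in the 2 strains for 11 gene lists with at least 10 measured members and a median of at least 0.25 in size in both strains, and for 7 of the genes named by agreement or by a single set that differed at least 2-fold in both strains. Each strain has 1 array a diet, so the difference was not tested. As the C3H difference minus the C57BL/6 difference (log2, median over members above the floor on all 4 arrays), fibrillar and type VI collagens gave 2.138, fibroblast markers 1.511, elastic fibre genes 1.507, proteoglycans 1.471, matricellular genes 1.112, contractile genes 0.9863 and collagen processing enzymes 0.9838. Lists higher in C57BL/6 and lower in C3H gave -1.191 (brown adipocyte), -1.016 (fatty acid oxidation), -0.9 (adipocyte) and -0.5461 (citric acid cycle). Among single genes, Mfap4 gave 3.99, Eln 3.279, Mfap5 3.253, Cmtr1 2.708 and Col1a2 2.559. In the other direction B3gat3 gave -4.009 and Cyp2b10 -5.195.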

How the results depend on the processing

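No paired analysis was possible because each group is 1 array, and for the same reason no replicate could be left out. The floor moved counts most. With the floor at the 25th percentile 1232 probe sets were 2-fold higher and 1224 lower, at the 60th 132 and 155, and with none 4382 and 4350. Genes with all sets at least 1.5-fold numbered 100 higher and 118 lower at the 25th percentile, 31 higher at the 60th, and 294 and 318 with no floor. At 1.5-fold 1519 and 1536 probe sets passed, at 3-fold 39 and 52, with 1 set per gene 254 and 266, and with every set at 2-fold 2 and 16 genes. Equal array medians shifted the median of all probe sets by 0.08, raised the share of higher calls from 48.9% to 57.8% (544 higher, 397 lower) and gave 82 genes higher by all sets. That setting put list medians at -0.2479 (contractile), -0.1082 (immediate early), 0.7272 (fatty acid oxidation), 0.4706 (brown adipocyte) and 0.444 (sterol efflux). These belong to a group of lists treated as the main ones. Others of that group that moved were contractile -0.5527 (cyclic loess), immediate early -0.04819 (25th percentile) and macrophage 0.1032 (60th percentile). Collagen processing moved to -0.6556 (without shared-probe sets) and, by the mean over all sets, collagens to -1.20 and elastic fibre to -0.7184. Outside that group, cell cycle genes reversed to 0.01675 by that mean. A further 53 medians outside it moved by more than a spread scaled to list size, and 304 did not. Clk4 reversed to 0.09373 (deposited values), 0.1899 (equal medians) and 0.1403 (loess), where another of its sets became the representative. Without shared-probe sets Hspa8 reversed to -0.6494, Hspe1 to -0.1318 and Mcm7 to 1.284, each read from another set. Of the other values for named genes, 2794 stayed within the spread between probe sets (0.51) and 59 moved by more. The larger count is not a measure of stability. A change of floor cannot alter the difference of a gene measured under both floors, and leaving out shared-probe sets cannot alter genes represented by other sets.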
